A study of Homo sapiens with 6 samples.

Results

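Polycomb repressive complexes 1 and 2 (PRC1 and PRC2) were followed through the genes of 9 of their subunits in RNA from MDA-MB-231 cells. This established line came from a human breast cancer of the triple-negative kind. The 9 genes are EZH1, EZH2, EED and SUZ12 of PRC2 and BMI1, RING1, RNF2, CBX2 and CBX8 of PRC1. They were taken by symbol from a table of 15024 genes, in which all 9 are listed, and all 9 passed the filter on low values. Every library came from cells in which MLL3, the histone H3 lysine 4 methyltransferase encoded by KMT2C, had been removed, and every culture had received 10 µM forskolin, which activates adenylyl cyclase, for 14 days. Cells were then sorted by flow cytometry for CD104 (integrin beta-4), which gave CD44+CD104high cells (n = 3), which the study's design calls hybrid, and CD44+CD104-/low cells (n = 3), which it calls mesenchymal and which are named CD104low here. The labels call the samples numbered biological replicates. They do not say whether the MLL3-null cells are a single clone or whether the replicates are separate cultures. Each p-value therefore reflects only how far these samples spread, and what that spread is made of is not stated. Wild-type cells and cells without forskolin were not analysed here, so nothing below compares MLL3-null with wild-type cells.

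Polycomb complexes keep genes silent by marking their chromatin. In PRC2, EZH2 or its relative EZH1 places methyl groups on lysine 27 of histone H3, SUZ12 holds the complex together, and EED binds the finished mark and stimulates the enzyme. In PRC1, RING1 or RNF2 attaches ubiquitin to histone H2A, BMI1 is the partner that makes this ligase active, and CBX proteins such as CBX2 and CBX8 read the methyl mark that PRC2 leaves. MLL3 belongs to the opposing Trithorax group and works in a complex that also carries KDM6A, an eraser of the H3 lysine 27 methyl mark. EZH2 is typical of dividing cells, while EZH1 is also found in resting ones.

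Between 49791498 and 60069719 reads per library fell on the listed genes, as recovered from the deposited values, which are read counts divided by a size factor per library and are called scaled read counts below. ITGB4, the gene of the sorted protein, averaged 16463 ± 2616 in CD104high and 1699 ± 503 in CD104low (SD, n = 3 libraries), which follows from the sort, while CD44 averaged 25592 ± 3169 in CD104high and 24651 ± 1232 in CD104low. KMT2C still gave 3561 to 3952 scaled reads in CD104high and 2095 to 2814 in CD104low, and a whole-gene value does not check a deletion. Of 9 leukocyte markers 3 were listed, with a summed level of 688.3 to 939.9 in CD104high and 330.9 to 410.5 in CD104low, and of 9 fibroblast and endothelial markers 7 were listed, with 1957 to 3196 in CD104high and 998.9 to 1531 in CD104low. CD14 and LAPTM5 made up nearly all of the leukocyte sum and PDGFRB most of the other. PDGFRB and another fibroblast gene, LUM, rose, which makes 2 rises in this list, or 1 without replicate 1 or 2 of CD104low. LUM averaged 185 ± 151 in CD104high and 49.5 ± 8.16 in CD104low (SD, n = 3 libraries), and the endothelial gene KDR averaged 75.4 in CD104high and 64.1 in CD104low and did not pass. The other listed genes of this list were too low to be tested. The fibroblast gene DCN averaged 4.61 in CD104high and 5.09 in CD104low, and the endothelial gene PECAM1 5.82 in CD104high and 9.9 in CD104low. The fibroblast gene THY1 averaged 2.13 in CD104high and 8.9 in CD104low, and PDGFRA 5.02 in CD104high and 3.14 in CD104low. PTPRC, the leukocyte gene of CD45, was not analysed here, and the part of such markers in the results below was not tested.

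Most of the 9 Polycomb genes were lower in CD104high cells. Of the 9 genes, 5 fell (BMI1, EED, EZH2, RNF2 and SUZ12), 1 rose (EZH1) and 3 did not pass the test (CBX2, CBX8 and RING1), by limma on log2(value + 1) with Benjamini-Hochberg adjusted p under 0.05 over all 14420 genes tested. Over all genes tested 43.4% were called, 21.6% lower and 21.8% higher in CD104high. The median log2 fold change, CD104high over CD104low here and throughout, was -0.29 for the 9 genes and 0.02 for all genes tested. BMI1 and EZH2 carried the differences that held under every alternative tried. The calls of EED, SUZ12, RNF2 and EZH1 depended on transcript base composition or on single libraries, as described with each gene. In bulk RNA, fewer cells with a high level and less RNA per cell cannot be told apart.

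**Figure D1:**
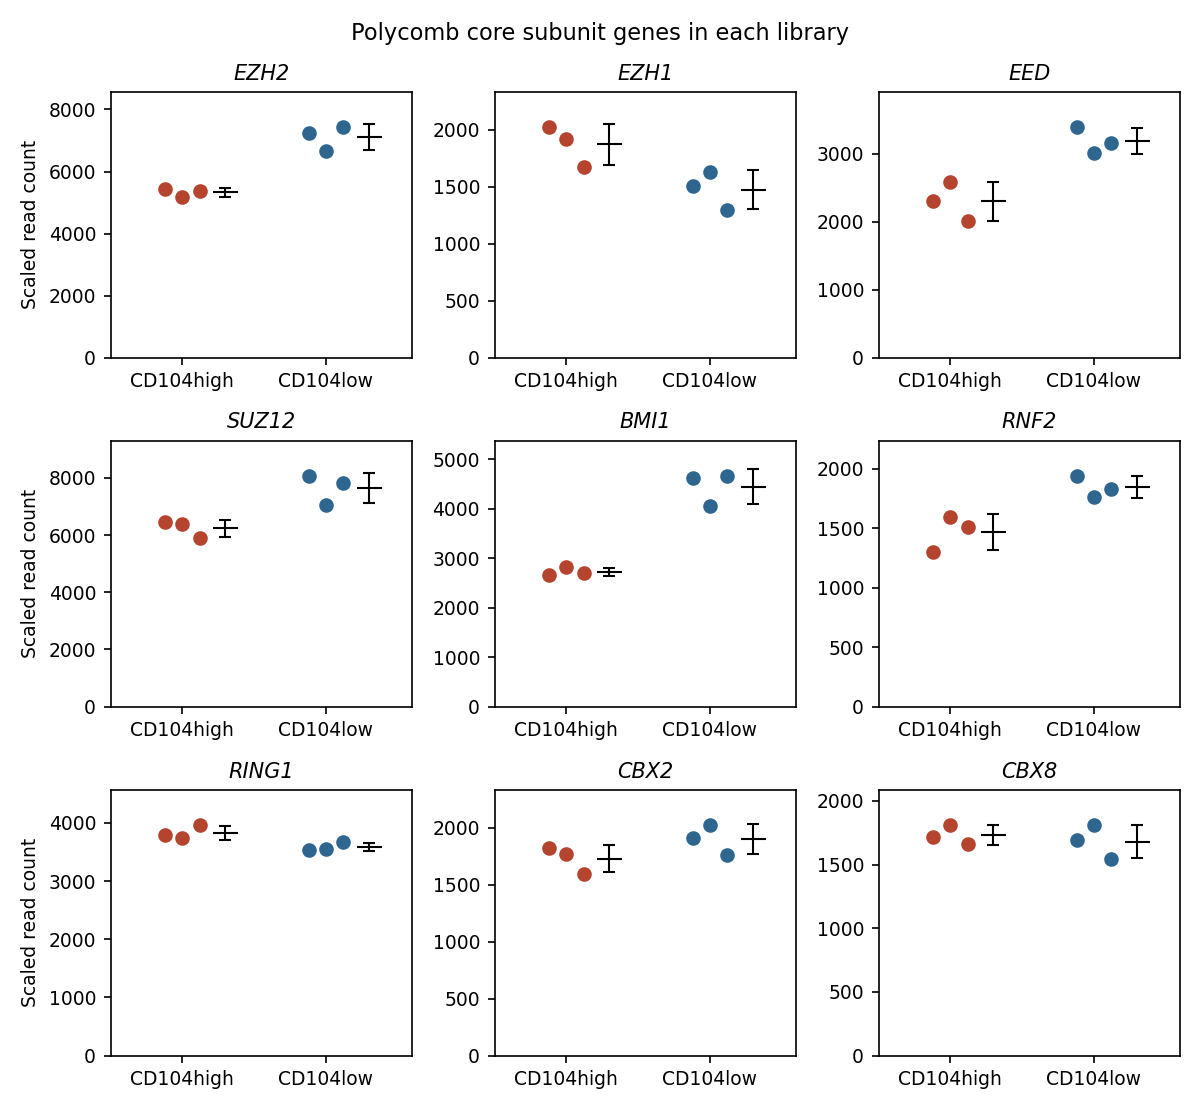
Scaled read count of each of the 9 genes (vertical axes, starting at 0) in the 3 CD104high libraries (red, left) and the 3 CD104low libraries (blue, right), with the mean and SD as a bar beside the points. BMI1 and EZH2 show the widest gaps relative to their spread, and the points of CBX2 and CBX8 overlap.

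EZH2, the main catalytic subunit of PRC2 in dividing cells, read 5437, 5173 and 5361 in CD104high, against 7247, 6653 and 7446 in CD104low. Every CD104high library lay below every CD104low library, and the CD104high values were the tighter group. The level was 74.9% of that in CD104low, a log2 fold change of -0.42 (SE 0.06, 95% interval -0.56 to -0.27, limma adjusted p = 0.00145). EZH2 (ENSG00000106462.11) lies on GRCh38 chromosome 7, 148807383 to 148884321, on the minus strand.

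EZH1 (ENSG00000108799.13; chromosome 17, 42700275 to 42745049, minus strand), the other methyltransferase, moved the other way. It read 2027, 1916 and 1677 in CD104high, against 1502, 1627 and 1293 in CD104low. The groups did not overlap, but the lowest CD104high library, at 1677, was close to the highest CD104low library, at 1627. The log2 fold change was 0.35 (SE 0.11, 95% interval 0.10 to 0.59, limma adjusted p = 0.0302), a 1.27-fold rise. The call was lost, with EZH1 adjusted p of 0.115, 0.0804, 0.075 and 0.0994, without replicate 1 or 2 of CD104high or without replicate 1 or 3 of CD104low, and limma without the trend gave 0.0652.

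The non-catalytic PRC2 subunits fell with EZH2. EED (ENSG00000074266.21; chromosome 11, 86244544 to 86278813, plus strand), which reads the methyl mark, had 2303, 2584 and 2011 in CD104high, against 3397, 3012 and 3150 in CD104low. All CD104high values were lower, with the widest spread of the falling PRC2 genes relative to its mean. Its log2 fold change was -0.48 (SE 0.10, 95% interval -0.70 to -0.25, limma adjusted p = 0.00531). SUZ12 (ENSG00000178691.11; chromosome 17, 31937018 to 32001045, plus strand), the scaffold, read 6451, 6374 and 5901 in CD104high, against 8077, 7039 and 7815 in CD104low. Here too the groups did not overlap, and replicate 2 of CD104low stood nearest to CD104high. The log2 fold change of SUZ12 was -0.29 (SE 0.07, 95% interval -0.45 to -0.13, limma adjusted p = 0.0116), and -0.25 (adjusted p = 0.0542) without replicate 1 of CD104low. SUZ12 has a closely similar pseudogene copy, SUZ12P1, so its reads may be shared with it.

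BMI1, the ring-finger partner that activates the PRC1 ligase and is known for sustaining stem and progenitor cells, showed the largest difference of the 9 genes. It read 2658, 2812 and 2705 in CD104high, against 4626, 4044 and 4664 in CD104low. The highest CD104high library was still far below the lowest CD104low library. The level was 61.4% of that in CD104low, a log2 fold change of -0.70 (SE 0.07, 95% interval -0.87 to -0.53, limma adjusted p = 0.000384). BMI1 (ENSG00000168283.14; GRCh38 chromosome 10, 22321211 to 22331484, plus strand) shares 8332 bases on its own strand with the readthrough gene COMMD3-BMI1, which was not analysed here, so reads of that transcript may be assigned to either. COMMD3, the gene upstream of BMI1, named after its value was seen, averaged 299.9 ± 36.7 in CD104high and 475 ± 28.6 in CD104low (SD, n = 3 libraries), a log2 fold change of -0.67, or -0.28 (limma adjusted p = 0.0821) once length and GC were corrected. That correction took the longest transcript of COMMD3, with 36.8% GC, while its longest coding transcript has 54% GC. A value corrected by the coding transcript is not given here for COMMD3.

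Of the ligase subunits of PRC1, RNF2 fell and RING1 did not pass. RNF2 (ENSG00000121481.11; chromosome 1, 185045364 to 185102608, plus strand), the main H2A ubiquitin ligase in many cells, read 1300, 1595 and 1509 in CD104high, against 1940, 1758 and 1829 in CD104low. All CD104high values were lower, and replicate 1 of CD104high was the lowest. The log2 fold change of RNF2 was -0.33 (SE 0.09, 95% interval -0.55 to -0.12, limma adjusted p = 0.0204). That call was lost without replicate 1 of CD104high (adjusted p = 0.0775) or without replicate 1 or 3 of CD104low (RNF2 adjusted p = 0.083 and 0.0523). RING1 (ENSG00000204227.5; chromosome 6, 33208495 to 33212722, plus strand), its paralogue, read 3783, 3737 and 3968 in CD104high, against 3535, 3553 and 3662 in CD104low. The groups did not overlap, by a narrow margin, and the log2 fold change of 0.10 (95% interval -0.04 to 0.23, limma adjusted p = 0.231) did not pass.

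Neither CBX reader passed the test on the values as the authors scaled them. CBX2 (ENSG00000173894.11; chromosome 17, 79778132 to 79787983, plus strand) read 1825, 1766 and 1599 in CD104high, against 1909, 2028 and 1764 in CD104low, with overlapping groups and a log2 fold change of -0.14 (95% interval -0.33 to 0.06, limma adjusted p = 0.231). CBX8 (ENSG00000141570.11; chromosome 17, 79792132 to 79801683, minus strand) read 1720, 1814 and 1664 in CD104high, against 1691, 1808 and 1546 in CD104low. Its log2 fold change was 0.05 (95% interval -0.14 to 0.23, limma adjusted p = 0.69), with overlapping groups. The antisense gene AC100791.2, not analysed here, overlaps 1086 bases of CBX8, and whether reads were assigned by strand is not stated. CBX2 and CBX8 are neighbours, with 4148 bases between them and opposite strands.

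In 7 of the 9 genes the populations did not overlap, 5 with CD104high lower and 2 with it higher, where 54.3% of all genes tested do not overlap. Replicate 2 of CD104low was the lowest CD104low library for EZH2, EED, SUZ12, BMI1 and RNF2 alike. The same library had the most ITGB4 of the CD104low libraries, 2273 against 1492 and 1333, and the part of this in the differences was not tested. Without it the log2 fold changes were -0.46 for EZH2, -0.52 for EED, -0.35 for SUZ12, -0.77 for BMI1 and -0.37 for RNF2. In the authors' deposited table the same 6 genes passed, with adjusted p from 9.79e-11 (BMI1) to 0.00841 (EZH1), where 45.7% of its genes passed.

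Set per kilobase of the longest coding transcript, so that genes can be compared, the order of levels in CD104high was RING1 (2186 scaled reads per kb ± 70), EZH2 (2017 ± 51.6), SUZ12 (1390 ± 66.3), EED (1034 ± 129), BMI1 (794.9 ± 23), CBX8 (457.1 ± 20.1), RNF2 (407 ± 42.1), EZH1 (405.2 ± 38.7) and CBX2 (372.5 ± 25.3). CD104low had EZH2 at the top (2696 ± 156), above RING1 (2045 ± 39.3), and EZH1 at the bottom (318.8 ± 36.5). Between them stood SUZ12 (1702 ± 120), EED (1433 ± 87.8), BMI1 (1297 ± 101), RNF2 (511 ± 25.4), CBX8 (443.6 ± 34.5) and CBX2 (409.2 ± 28.5), each as mean ± SD of 3 libraries. In CD104high the neighbours from CBX8 down to CBX2 differed by less than the sum of their SDs, as did EED and BMI1, and CBX8 and CBX2, in CD104low. The annotated length need not be that of the transcript expressed, which limits this order.

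Since paralogues compete for the same place in a complex, their ratio per kb was taken in each library as a description, without a test. EZH2 over EZH1 was 4.7, 4.73 and 5.6 in CD104high, against 8.45, 7.16 and 10.1 in CD104low. BMI1 over PCGF2, the paralogue of BMI1 in canonical PRC1, was 1.25, 1.4 and 1.39 in CD104high, against 2.43, 2.07 and 2.59 in CD104low. RNF2 over RING1 was 0.167, 0.207 and 0.185 in CD104high, against 0.267, 0.24 and 0.243 in CD104low. All 3 ratios were lower in every CD104high library than in any CD104low library, with log2 differences of -0.77, -0.81 and -0.43, or -0.54, -0.49 and -0.19 once length and GC were corrected. CBX2 over CBX8 also did not overlap, at 0.784 to 0.866 in CD104high and 0.916 to 0.931 in CD104low, a log2 difference of -0.18.

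**Figure D2:**
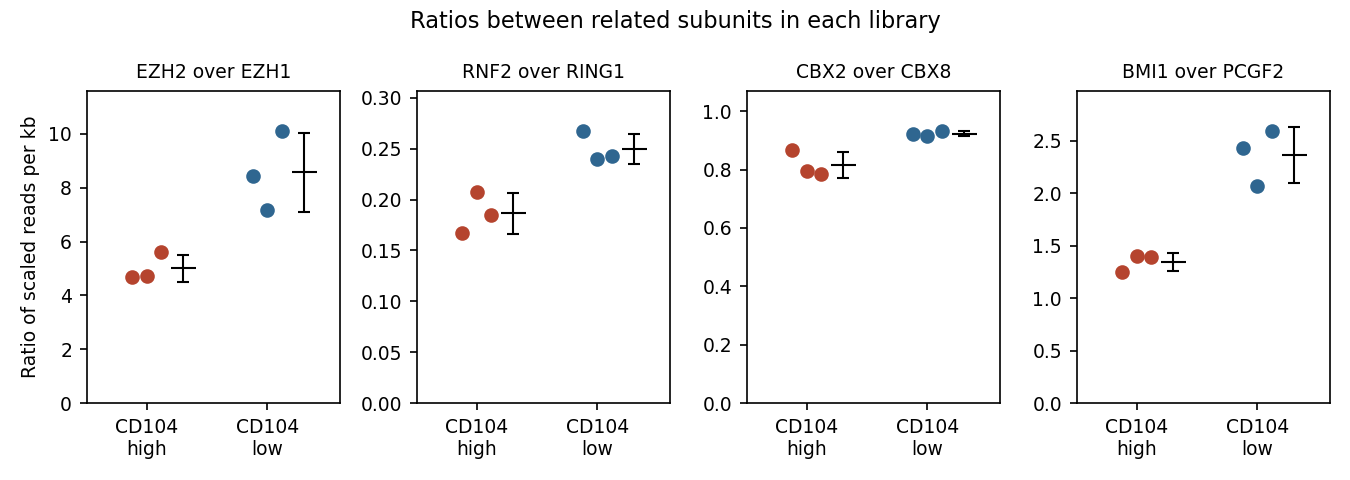
Ratios of scaled reads per kb between related subunits (vertical axes, starting at 0) in the 3 CD104high libraries (red, left) and the 3 CD104low libraries (blue, right), with mean and SD as bars. EZH2 over EZH1 lay at 4.7 to 5.6 in CD104high and 7.16 to 10.1 in CD104low.

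By their longest annotated transcripts, the genes that fell are poor in G and C, and genes of that composition were lower in CD104high across the table. The longest annotated transcript has a GC content of 33% for EED, 38% for SUZ12, 38.1% for RNF2, 39.1% for BMI1 and 42.7% for EZH2. EZH1 stands at 50.5%, CBX8 at 57.5%, CBX2 at 59.7% and RING1 at 61.6%. The longest coding transcript is less poor in GC for EED, at 45.9%, and for EZH2, at 44.8%. The bins below use the longest annotated transcript. Among all genes tested, 42% of those under 35% GC and 32.4% of those from 35 to 40% fell, against 17.1% of those at 60% or more. The medians of these bins were -0.28, -0.11 and 0.11. The tilt was present in each library: genes under 40% GC differed from genes at 55% GC or more by -0.143 to -0.109 (log2, difference of medians) in CD104high and by 0.064 to 0.146 in CD104low, each relative to the gene's mean over the 6 libraries. It thus separates the populations, with replicate 2 of CD104low the nearest to CD104high, and base composition cannot be told apart from population in these libraries.

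**Figure D3:**
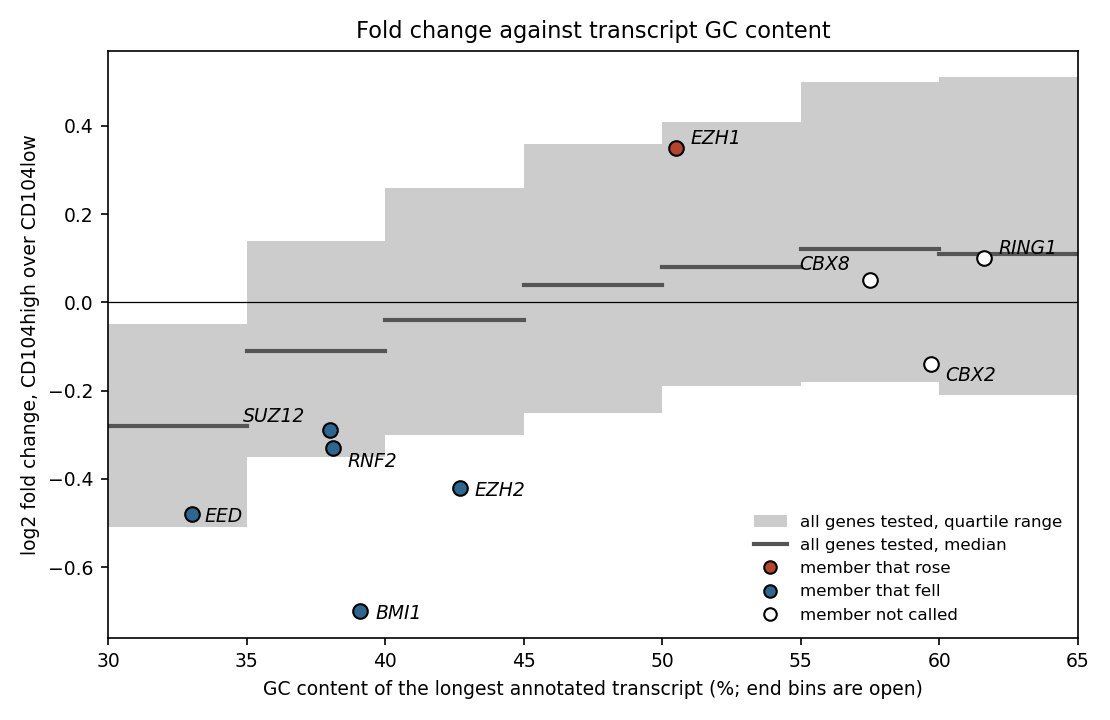
log2 fold change of CD104high over CD104low (vertical axis) against the GC content of the longest annotated transcript (horizontal axis, percent) for the 9 genes (circles, red rose, blue fell, white not called), over the median and quartile range of all genes tested in bins of GC content. BMI1 (-0.70) and EZH2 (-0.42) lie below the quartile range of their bins, while EED, SUZ12 and RNF2 lie inside theirs. The place of EED rests on its longest transcript, with 33% GC, while its longest coding transcript has 45.9%.

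A correction of each library for transcript length and GC content left 3 of the 9 genes called, all lower in CD104high, where 40.5% of all genes were called with 20.8% lower and 19.7% higher. BMI1 was at -0.49 (95% interval -0.64 to -0.35, limma adjusted p = 0.000734) and EZH2 at -0.33 (95% interval -0.47 to -0.19, adjusted p = 0.00331). CBX2 was at -0.37 (95% interval -0.53 to -0.21) and passed with the correction (limma adjusted p = 0.00412), where it had not before. SUZ12 at -0.12 (adjusted p = 0.18), RNF2 at -0.10 (0.351) and EZH1 at 0.21 (0.119) did not pass. EED was at 0.00 (95% interval -0.24 to 0.25, adjusted p = 0.981), and here the choice of transcript decided the value. The longest coding transcript of EED has 45.9% GC, and with coding transcripts in the correction EED was at -0.34 (limma adjusted p = 0.022), while SUZ12 (-0.13), RNF2 (-0.11) and EZH1 (0.21) stayed outside the threshold. EZH1 passed with GC alone corrected (0.30, limma adjusted p = 0.049) and with length alone (0.30, 0.0441). It also passed with the correction and the replicate block together (0.21, limma adjusted p = 0.016). SUZ12 and RNF2 passed with length alone, but not with GC alone or with correction and block together. A share of 3 in 9 is close to the share of all genes, so with the correction the 9 genes are described one by one and not as a group that moved.

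**Figure D4:**
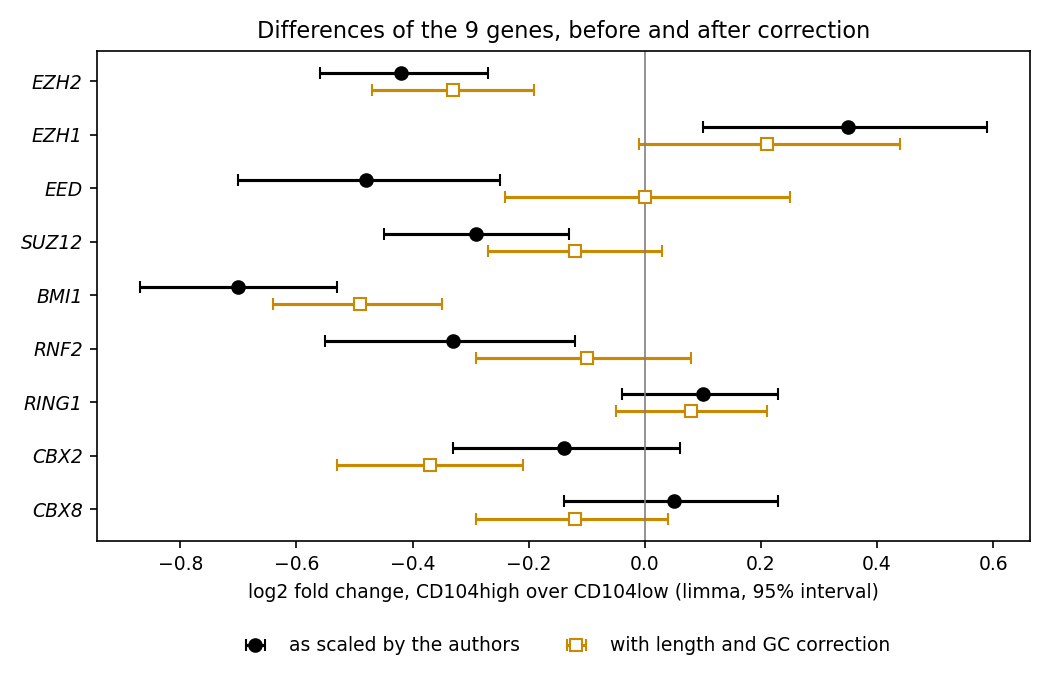
log2 fold change of CD104high over CD104low with its 95% interval from limma (horizontal axis) for each of the 9 genes (rows), as scaled by the authors (black circles) and after correcting each library for length and GC (open squares). The intervals of BMI1 and EZH2 stay below 0 in both, those of EED, SUZ12, RNF2 and EZH1 reach 0 after correction, and that of CBX2 moves below 0.

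Promoter windows from RefSeq (GRCh38.p14), 250 bases before and 50 after an annotated start, were found for 7 of the 9 genes, all but CBX2 and CBX8. They are shown for the 2 genes whose fall held throughout and for SUZ12 and EZH1, since these 4 hold an E2F form or an E-box. The motifs, on both strands, were the E2F forms TTTCCCGC, TTTCGCGC, TTTGCCGC and TTTGGCGC, bound by the E2F factors of the cell cycle, the E-box CACGTG, bound by MYC and related factors, and the cAMP response element, bound by CREB, in full as TGACGTCA and as its core TGACG, which the full element contains. Capitals mark the E2F form or the E-box, and each sequence runs 5′ to 3′ on the strand of the gene.
BMI1 (chr10:22320849-22321148, plus strand): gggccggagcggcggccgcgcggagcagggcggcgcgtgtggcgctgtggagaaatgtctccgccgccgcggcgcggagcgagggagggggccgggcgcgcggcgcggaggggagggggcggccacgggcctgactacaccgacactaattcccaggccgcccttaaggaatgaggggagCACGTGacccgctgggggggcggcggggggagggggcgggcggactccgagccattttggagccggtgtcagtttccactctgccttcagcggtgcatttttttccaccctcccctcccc
EZH2 (chr7:148884242-148884541, minus strand): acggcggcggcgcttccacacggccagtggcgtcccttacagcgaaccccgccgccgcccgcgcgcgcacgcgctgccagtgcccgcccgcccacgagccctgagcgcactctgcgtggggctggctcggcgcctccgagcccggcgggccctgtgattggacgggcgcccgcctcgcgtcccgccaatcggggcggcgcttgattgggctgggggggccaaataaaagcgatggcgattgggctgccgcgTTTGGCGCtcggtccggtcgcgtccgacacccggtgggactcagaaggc
SUZ12 (chr17:31936757-31937056, plus strand): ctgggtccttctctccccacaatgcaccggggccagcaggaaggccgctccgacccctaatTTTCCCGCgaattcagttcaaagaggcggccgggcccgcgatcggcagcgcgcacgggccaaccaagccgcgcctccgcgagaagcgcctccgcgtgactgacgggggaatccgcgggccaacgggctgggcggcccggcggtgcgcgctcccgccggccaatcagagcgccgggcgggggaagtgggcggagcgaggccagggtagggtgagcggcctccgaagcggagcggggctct
EZH1 (chr17:42744991-42745290, minus strand): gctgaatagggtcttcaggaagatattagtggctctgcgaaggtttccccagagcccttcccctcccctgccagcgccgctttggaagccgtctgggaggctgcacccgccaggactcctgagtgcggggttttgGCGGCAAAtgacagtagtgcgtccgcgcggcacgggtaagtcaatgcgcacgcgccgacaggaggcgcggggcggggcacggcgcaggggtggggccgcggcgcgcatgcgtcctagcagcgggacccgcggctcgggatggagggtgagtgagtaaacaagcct
An E2F form begins at base 252 of the EZH2 window, base 62 of the SUZ12 window and base 136 of the EZH1 window, the last on the opposite strand, and the window of the second annotated EZH2 start has none. Of 34943 RefSeq windows of the same length, 3.3% hold an E2F form. The BMI1 window has an E-box at base 181, as do 7.23% of all windows, and the second annotated start of BMI1 has none. None of the 9 windows of these genes holds the full cAMP response element, which 1.84% of all windows hold. The core TGACG is in 4 of the 9 windows, those of EED, SUZ12 and RING1 and the second start of EZH2, and in 24.5% of all windows. Of the genes with an E2F form, EZH2 and SUZ12 were lower in CD104high and EZH1 higher in the main fit. SUZ12 and EZH1 did not pass with the length and GC correction. The part of E2F factors in these differences was not tested. A match says only that these letters are present.

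Of 11 genes of E2F factors and of the pocket proteins that restrain them, 2 rose and 4 fell, with a median log2 fold change of 0.02. Over all genes tested 43.4% were called, so the share called in this list was near that of the table. E2F4 averaged 5264 ± 342 in CD104high and 7853 ± 274 in CD104low (SD, n = 3 libraries; log2 fold change -0.58), and E2F5 567.4 ± 51 in CD104high and 901.6 ± 110 in CD104low (-0.66). E2F3, an activator of the cell cycle, fell by 0.32 and the pocket protein gene RBL1 by 0.20. RBL2, the pocket protein p130 of resting cells, rose and averaged 1733 ± 72.1 in CD104high and 1152 ± 46.2 in CD104low (SD, n = 3 libraries; log2 fold change 0.59), the same 0.59 with the length and GC correction. TFDP2, a dimer partner of E2F, rose by 0.27 and was at 0.03 with the correction. RBL1 passed in only 1 of the 6 fits that leave out a library, without replicate 2 of CD104low, and TFDP2 did not pass without replicate 1 of CD104low (adjusted p = 0.055).

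Of 11 further partners of PRC2, a list that holds the histone-binding subunits RBBP4 and RBBP7 beside accessory subunits, 9 were tested. Among these 1 rose, 1 fell and 7 did not pass, with a median of -0.06, where 43.4% of all genes tested were called. JARID2, which helps bring PRC2 to its targets, read 5661, 5264 and 5081 in CD104high, against 3533, 4122 and 3715 in CD104low. Its groups were well apart, at 0.49 on the log2 scale (SE 0.08, limma adjusted p = 0.00153), and 0.31 (adjusted p = 0.0046) once length and GC were corrected. MTF2, a Polycomb-like protein that binds CpG-rich DNA, averaged 3054 ± 281 in CD104high and 4031 ± 148 in CD104low (SD, n = 3 libraries), a log2 fold change of -0.40, or -0.20 (adjusted p = 0.0656) with the correction. EPOP and EZHIP were not analysed here.

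Of 10 further subunits of canonical PRC1, 1 rose, 1 fell and 8 did not pass, with a median of 0.06, where 43.4% of all genes tested were called. PHC2, a polyhomeotic protein that lets PRC1 cluster, averaged 7906 ± 65.9 in CD104high and 9519 ± 490 in CD104low (SD, n = 3 libraries), a log2 fold change of -0.27, and -0.45 with the correction. PHC3, its relative, rose by 0.28, but did not pass in 4 of the 6 fits that leave out a library, those without replicate 1 or 2 of CD104high or replicate 1 or 3 of CD104low (adjusted p from 0.105 to 0.121). PCGF2 averaged 1813 ± 86.8 in CD104high and 1685 ± 68.2 in CD104low and did not pass (log2 fold change 0.11, 95% interval -0.06 to 0.28).

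Variant PRC1 complexes lack the CBX proteins that read the methyl mark of PRC2 and use other PCGF partners. Of 19 tested partners 4 rose, 10 fell and 5 did not pass, with a median of -0.21, where 21.8% of all genes rose and 21.6% fell. With the correction 1 rose and 9 fell, and limma without the trend gave 3 and 6. Leaving out replicate 1 of either population gave 1 and 5, leaving out replicate 2 of CD104high 2 and 7, and leaving out replicate 3 of CD104low 3 and 6. PCGF6, the ring-finger partner of a variant complex with E2F6 and MGA, averaged 1680 ± 32.3 in CD104high and 2387 ± 172 in CD104low (SD, n = 3 libraries; log2 fold change -0.50, or -0.28 with the correction). WDR5, which that complex shares with the MLL complexes, averaged 6024 ± 236 in CD104high and 7902 ± 153 in CD104low (-0.39, or -0.49 with the correction). BCORL1, a corepressor of the PCGF1 complex, rose and averaged 2042 ± 67.3 in CD104high and 1239 ± 84.8 in CD104low (SD, n = 3 libraries; log2 fold change 0.72, or 0.41 with the correction). The other rises were BCOR (0.34), MGA (0.32) and DCAF7 (0.23), and none of these 3 passed with the correction (0.11, 0.11 and 0.06) or without replicate 1 of either population. Without replicate 2 of CD104high BCOR and MGA did not pass, nor BCOR without replicate 3 of CD104low. AUTS2 was not analysed here.

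**Figure D5:**
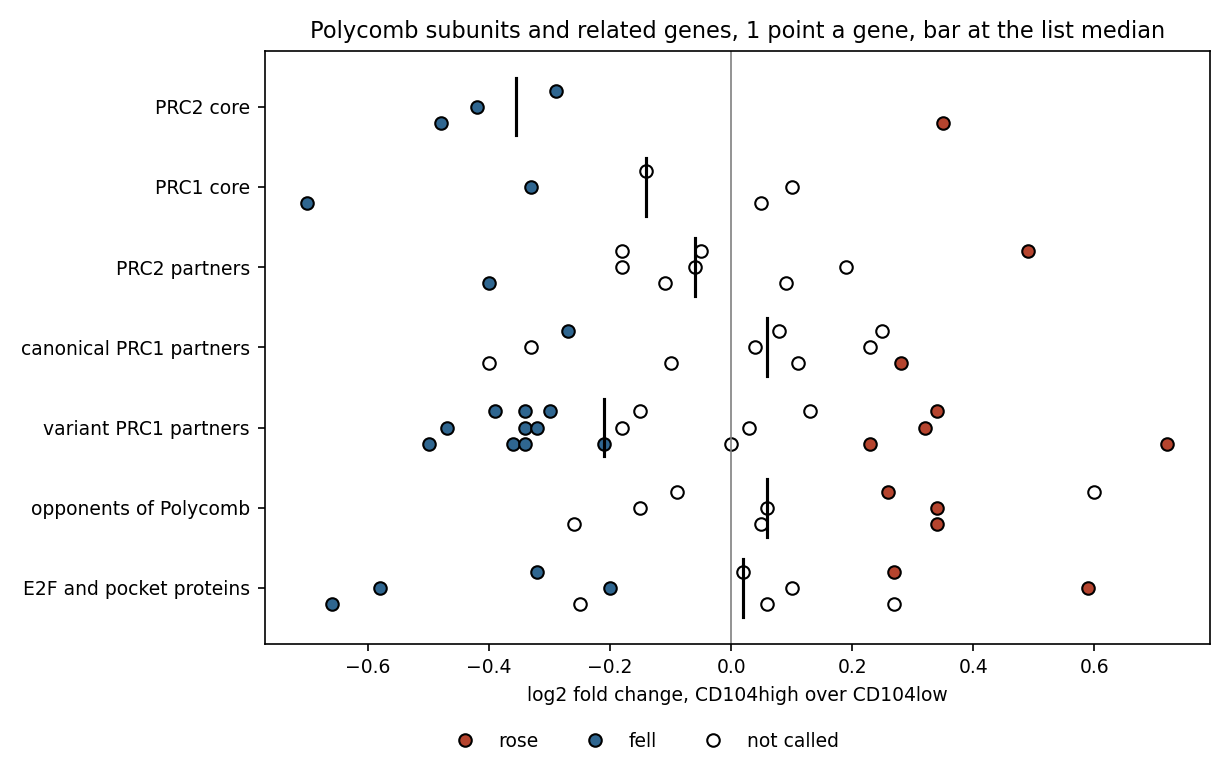
log2 fold change of CD104high over CD104low (horizontal axis) for each tested gene of 7 lists (rows), with red points for genes that rose, blue for genes that fell, white for genes not called and a black bar at the list median. The medians run from -0.35 for the PRC2 core (EZH1, EZH2, EED and SUZ12) to 0.06 for canonical PRC1 partners and for opponents of Polycomb.

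Among opponents of Polycomb, 3 of 9 tested genes rose, 0 fell and 6 did not pass, with a median of 0.06. This is close to the share over all genes tested, of which 21.8% rose and 43.4% were called in either direction. KDM6A, the H3 lysine 27 demethylase that sits in the MLL3 complex, read 2364, 2366 and 2447 in CD104high, against 1841, 1991 and 1832 in CD104low. Its libraries were tight within each population, at 0.34 on the log2 scale (SE 0.07, limma adjusted p = 0.00466), or 0.29 (adjusted p = 0.00943) with the correction. ASXL2, a partner of the H2A deubiquitinase BAP1, rose by 0.26, or was at 0.09 with the correction, and did not pass without replicate 1 or 2 of CD104high or replicate 1 or 3 of CD104low (adjusted p from 0.0628 to 0.15). FOXK1, a DNA-binding partner of that enzyme, rose by 0.34 but was at -0.08 with the correction, so its direction depends on it. With the correction 1 gene of this list was called higher and 3 lower.

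HOX genes and other developmental regulators are genes that Polycomb is known to silence in other cells. Of 39 HOX genes 13 were listed and 11 tested, of which 2 rose, 2 fell and 7 did not pass, with a median of -0.03, where 43.4% of all genes tested were called. HOXA13 averaged 96.2 ± 6.31 in CD104high and 36.1 ± 6.3 in CD104low (SD, n = 3 libraries; log2 fold change 1.40), and HOXB3 172 ± 14.1 in CD104high and 85.8 ± 14.1 in CD104low (1.01). HOXD4 fell by 0.56 and HOXB9 by 0.36, and neither passed without replicate 1 of CD104low (adjusted p = 0.0599 and 0.0802). Of 40 other developmental regulators 14 were tested and 3 rose, IRX3 and PAX8 among them, while 0 fell, with a median of 0.06. Over all genes tested 21.8% rose and 21.6% fell. The absence of falls depended on the setting. With the length and GC correction 3 rose and 1 fell, with a median of -0.11, and with correction and replicate block together 3 and 4. The replicate block alone gave 3 and 2, and quantile normalization or the correction of GC alone 3 and 3. Leaving out replicate 3 of either population gave 2 and 1. IRX3 spread widely in CD104high, at 764.3, 333.6 and 1475, against 204.2, 99.1 and 222.4 in CD104low (log2 fold change 2.12, SE 0.50). PAX8 rose by 0.66. The genes of the INK4 and ARF locus, a classic target of BMI1, were not analysed here, and the state of histone marks was not measured.

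For the largest fall and the largest rise among the 9 genes, the nearest profiles were sought among 12510 other genes with a mean of at least 50, by Euclidean distance between centred log2(value + 1) values over the 6 libraries. The 3 genes nearest to BMI1 were CCDC59 (distance 0.06), RBBP8 (0.067) and C12orf4 (0.075), with log2 fold changes of -0.67, -0.70 and -0.74. With length and GC corrected they were at -0.15, -0.51 and -0.55, beside -0.49 for BMI1, so the likeness of CCDC59, whose longest transcript has 33.4% GC, did not hold. In all, 1951 genes lay within 0.5 of BMI1. RBBP8, which encodes the DNA end resection factor CtIP, averaged 4124 in CD104high and 6717 in CD104low. The 3 genes nearest to EZH1 were ZNF552 (distance 0.096), VWDE (0.1) and the mismatch repair gene MLH3 (0.11), with log2 fold changes of 0.41, 0.32 and 0.29, or 0.53, 0.29 and 0.21 with the correction, of which VWDE did not pass (limma adjusted p = 0.0861). Like EZH1, ZNF552 and MLH3 did not pass without replicate 1 or 2 of CD104high or replicate 1 or 3 of CD104low.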

How the data were processed

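RNA-seq of 6 sorted MDA-MB-231 libraries, 3 CD104high and 3 CD104low, was used. The deposited values are read counts per gene that the authors divided by a size factor per library (unit: signal); FastQC, Salmon 1.3.0 and DESeq2 are listed, with no role, in the submitters' processing notes, and per the file headers the table also holds the authors' log2 fold changes, p-values and adjusted p-values. Dividing each library by its smallest step returned whole reads for 100% of values, within 0.01. Coordinates and transcripts are those of GENCODE 29 (GRCh38).

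log2(value + 1) was fitted for all genes with limma 3.58.1 (R 4.3.3, trend on), CD104high minus CD104low, for genes with at least 10 in at least 3 libraries, with Benjamini-Hochberg adjustment over all genes tested; called means adjusted p under 0.05. Scripts were tested on simulated data. Alternatives used other scalings, pseudocounts and filters, edgeR 4.0.16 and DESeq2 1.42.0 on the recovered reads, a replicate block, natural splines in transcript length and GC content per library, and each library left out. Related genes come from lists of partners, opponents, E2F and target genes. Named were all 9 members, from each list the 2 rises and 2 falls with the smallest p among genes called, any gene needed to spell out a count of 5 or fewer, ITGB4, CD44 and KMT2C, and the 3 nearest profiles of the largest rise and fall; others are said to be chosen after their values were seen. Some genes of the lists are not reported here by name. The members and lists were chosen with earlier results of these data known. Intervals cover the spread between samples only.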

Additional observations from a re-analysis of the deposited data

How the results depend on the processing

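Across 22 alternatives, 165 of the 198 values of the 9 genes kept their direction and side of the threshold. Of the others, 20 lost their call with the direction kept, 5 gained one and 8 changed sign. The 2 values of EED that changed sign also lost their call. BMI1 and EZH2 kept their direction and call in all 22. The count of genes changed ran from 5476 (limma without the trend) to 7876 (replicate block) with all libraries, against 6257. It ran from 4097, without replicate 1 of CD104low, to 6390 when each library was left out, where the 9 genes gave 3 to 6 calls. Corrected for length and GC, 3 of the 9 were called, and 4 with GC alone, with coding transcripts or with correction and block together; length alone gave 7, RING1 being added. The correction of GC alone or length alone, by coding transcripts and with the block was chosen after seeing the data. Values that changed sign were EED (0.00 with the correction, with and without block), RING1 (-0.03, GC alone), CBX8 (-0.12 with the correction, -0.12 with block, -0.07 GC alone, -0.14 coding, -0.01 without replicate 3 of CD104low, with leave-one-out values from -0.01 to 0.10 over the 6 libraries), FOXK1 (-0.08, -0.08 with block, -0.09 coding) and CD44 (-0.04, -0.04 with block, -0.04 length alone, -0.05 coding, -0.03 without replicate 3 of CD104high, with leave-one-out values from -0.03 to 0.15). Apart from base composition and length, which the correction itself removes, the cause of these changes was not tested.

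The replicate numbers do not pair the samples by the labels: deviations of same-numbered libraries correlated at 0.0836, 0.359 and 0.324. With the replicate block 7876 genes were called and 6 of the 9, 1 higher and 5 lower; every library correlated best with its own number, a hint from the data and not the design. With 3 libraries a population, differences as small as that of RING1 were not resolved.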

Other observations

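Several partner genes did not pass in the main fit but passed once length and GC content were corrected. They are given here as log2 fold changes with the limma adjusted p in parentheses, chosen after they were seen. Other settings are not given for each gene, and the replicate block without correction gave 2 falls among opponents of Polycomb. KDM2B, which brings the PCGF1 complex to unmethylated CpG islands, was at -0.32 (0.00519) with the correction and at 0.00 (0.968) without it. CBX6, a reader in canonical PRC1, was at -0.40 (0.00477) with it and -0.10 (0.271) without, and PHF19, a Polycomb-like partner of PRC2, at -0.31 (0.0152) with it and -0.11 (0.248) without. L3MBTL2 of the PCGF6 complex was at -0.40 (0.018) with it and -0.15 (0.278) without. Among opponents of Polycomb, BAP1 was at -0.29 (0.0296) with it and -0.09 (0.352) without, ASXL1 at -0.18 (0.021) with it and 0.06 (0.481) without, and FOXK2 at -0.39 (0.00137) with it and -0.15 (0.0801) without. RB1, the retinoblastoma gene, was the only one of these higher in CD104high, at 0.25 (0.00898) with the correction and 0.06 (0.445) without.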
